A study of Mus musculus with 12 samples.

Results

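The immediate early and stimulation response genes are 46 genes that lymphocytes switch on, or use to limit the response, within minutes to hours of a stimulus. They were chosen by name as a list, though with earlier results of these data known. Each was read at the probe with the highest mean over 12 Illumina mouse arrays. Of the 46, 39 passed the filter on dim probes and were tested among 12119 genes. Nr4a1, Btg2 and Rgs2 had probes between 4.25 and 4.91 on the log2 scale, near the array medians of 4.66 to 4.68, and did not pass it. Fosl1, Nfkb1, Dusp5 and Ier2 were not analysed here, as no probe of the table used carried their names.

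The arrays measured total RNA of CD4+ T cells sorted after transfer into RAG1-/- mice, hosts without T or B lymphocytes. Naive (CD4+CD44low) donor cells of C57BL/6 mice aged 8 to 12 weeks carried a Foxp3GFP reporter and were either Blimp1-deficient (labelled CKO) or Blimp1-sufficient (labelled Ctrl). Both were injected together at equal numbers, and 6 to 8 weeks later their progeny were sorted, by Foxp3 and an allotype marker, into regulatory cells (Treg, Foxp3+, labelled pTreg) and effector cells (Teff, Foxp3-). This gave 4 groups of 3 arrays: CKO Treg, Ctrl Treg, CKO Teff and Ctrl Teff. In all 4 groups cells of spleen, mesenteric lymph nodes and large intestinal lamina propria were pooled, and the cells were stimulated in vitro for 4 h with PMA and ionomycin. There was no unstimulated group, so no value here is an induction. What drove the deletion of Blimp1 is not stated. Nor is it stated that replicates were separate animals, and p-values cover only the spread among these arrays, which may be technical.

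PMA activates protein kinase C and Ras, ionomycin raises calcium, and together they bypass the T cell receptor to drive the MAP kinase, NF-kB and calcineurin pathways. Immediate early genes such as Fos and Egr1 need no new protein for their transcription, and their products bind the control regions of a later wave of genes that includes cytokines. The same stimulus induces its own brakes: Dusp phosphatases remove phosphate from MAP kinases, IkB proteins hold NF-kB inactive, and Zfp36 (tristetraprolin) speeds the decay of messages with AU-rich elements.

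The Foxp3 signal of the sort was as labelled, but other cell types were also visible. Foxp3 separated Treg (7.29 to 8.94 on the log2 scale) from Teff (4.42 to 4.85). All 5 T cell markers with a probe were above the array median on all 12 arrays. Of these Cd4 itself was dim, at 4.95 to 6.40. Cd8b1 stood at 8.45 to 10.02 over the 12 arrays, while Cd8a, at 4.13 to 4.52, was above the median on none. The CD4 label of the sort is therefore not checked by these probes. Of 16 neutrophil markers, 11 were above the median on all 12 arrays. Their summed linear signal, as log2, ran from 11.08 to 14.65 in CKO Treg, 11.61 to 15.19 in Ctrl Treg, 13.26 to 15.38 in CKO Teff and 11.90 to 15.93 in Ctrl Teff. The summed mast cell and basophil markers reached 14.33 in CKO Teff, with 8.41 to 8.72 in CKO Treg, 8.59 to 8.91 in Ctrl Treg and 7.97 to 9.72 in Ctrl Teff. In such mixed RNA, fewer cells of a type and less RNA per cell cannot be told apart. The bright Prdm1 probe, for the gene of Blimp1, was higher on arrays labelled CKO (8.47 to 9.48 in Treg and 7.83 to 9.0 in Teff) than on those labelled Ctrl (5.19 to 6.07 and 4.64 to 5.39). Where it lies relative to the deleted part is not stated, so it does not check the labels, and every genotype difference below is between arrays labelled CKO and Ctrl.

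The promoters of 4 members on which the results turn are shown first. Fos and Nfkbia followed the rest of the list closely from array to array, Nfkbia and Zfp36 were among 3 members that passed as lower in CKO Treg with the array number as a fixed block (adjusted p = 0.346 and 0.134 with it as a random block), and Dusp2 separated Treg from Teff with little change from array to array. Each sequence is the 250 bases before the annotated start, 5′ to 3′ on the gene's strand, from RefSeq on GRCm38.p6, with capitals marking matches to the motifs described after them. Fos lies at chr12:85473640-85473889 on the plus strand, Nfkbia at chr12:55492648-55492897 on the minus strand, Zfp36 at chr7:28379229-28379478 on the minus strand and Dusp2 at chr2:127335909-127336158 on the plus strand.
Fos: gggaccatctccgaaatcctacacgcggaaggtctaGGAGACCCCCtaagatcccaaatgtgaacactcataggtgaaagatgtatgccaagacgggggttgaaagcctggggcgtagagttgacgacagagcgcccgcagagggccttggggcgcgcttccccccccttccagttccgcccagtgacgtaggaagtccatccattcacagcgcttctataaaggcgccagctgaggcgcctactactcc
Nfkbia: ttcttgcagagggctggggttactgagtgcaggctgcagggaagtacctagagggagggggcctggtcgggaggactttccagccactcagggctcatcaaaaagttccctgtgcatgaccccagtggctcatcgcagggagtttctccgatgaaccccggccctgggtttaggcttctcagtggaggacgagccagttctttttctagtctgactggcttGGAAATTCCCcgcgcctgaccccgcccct
Zfp36: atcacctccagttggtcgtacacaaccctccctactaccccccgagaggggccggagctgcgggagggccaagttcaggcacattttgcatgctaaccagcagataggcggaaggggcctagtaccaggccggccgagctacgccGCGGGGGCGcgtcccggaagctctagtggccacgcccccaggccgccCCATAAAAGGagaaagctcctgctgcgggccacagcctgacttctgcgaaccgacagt
Dusp2: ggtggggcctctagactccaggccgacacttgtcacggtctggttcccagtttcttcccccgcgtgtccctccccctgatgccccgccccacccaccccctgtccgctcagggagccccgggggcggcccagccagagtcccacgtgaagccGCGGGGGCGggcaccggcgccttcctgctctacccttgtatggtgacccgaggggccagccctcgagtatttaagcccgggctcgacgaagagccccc

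Fos and Nfkbia hold 1 match each to the NF-kB consensus, Zfp36 holds an Egr match (GCGNGGGCG) and a CArG box, the element bound by serum response factor, and Dusp2 holds an Egr match. Promoter windows of 300 bases (250 before and 50 after the start) were found for 34 of the 46 members, 49 windows in all, and were searched on both strands. The NF-kB consensus stood in 28.6% of the members' windows and in 4.50% of all 32851 windows. The Egr motif stood in 22.4% against 5.55%, and the CArG box in 12.2% against 1.63%. The 6 members' windows with a CArG box came from 3 of the 34 genes (Dusp5, Egr2 and Zfp36), most of them from Egr2. The cyclic AMP element TGACGTCA stood in 8.16% against 1.79%, and the AP-1 motif TGANTCA in 10.2% against 7.81%. The core AGNGAAAG that Blimp1 recognises stood in 2.04% of the members' windows, in Nfkb2 alone, against 8.63% of all windows. Windows of 1 gene can overlap, and a match in these letters is a description, not a binding site.

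The AP-1 members are bZIP proteins that bind DNA as Fos-Jun pairs. Fos had log2 values of 8.80, 9.09 and 7.27 in CKO Treg and 9.09, 9.17 and 7.63 in Ctrl Treg. It had 9.96, 10.95 and 7.94 in CKO Teff and 9.27, 10.88 and 7.91 in Ctrl Teff. The array numbered 3 was the lowest of each group and the array numbered 2 the highest of each, and the spread within a group was larger than any difference between group means. Atf3, a stress-induced bZIP factor, spanned 6.19 to 9.88 over the 12 arrays and Fosb 5.68 to 9.72, both again lowest on arrays numbered 3. Jund, which is expressed constitutively in many cells, spanned 5.93 to 7.31 and had its lowest value on array 3 in Ctrl Treg but in none of the other 3 groups. Maff, a small Maf protein, spanned 4.94 to 5.80, nearer to the array medians.

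Among the Egr zinc finger factors, Egr2, which restrains T cell activation in mouse, had log2 values of 12.46, 12.08 and 11.67 in CKO Treg, 12.12, 11.38 and 11.57 in Ctrl Treg, 12.26, 12.43 and 11.58 in CKO Teff and 12.55, 12.87 and 12.41 in Ctrl Teff. Ctrl Teff lay above Ctrl Treg with no overlap, while the CKO groups overlapped. Egr1 spanned 10.89 to 13.11. Egr3 had 4.61, 4.66 and 4.58 in CKO Treg, 4.62, 4.94 and 4.75 in Ctrl Treg, 4.70, 4.85 and 4.96 in CKO Teff and 4.88, 4.81 and 4.68 in Ctrl Teff. These values lie about the array medians, where a difference can hardly be measured. Of the Nr4a orphan nuclear receptors, which T cells induce on receptor signalling, Nr4a2 spanned 7.80 to 11.45 and Nr4a3 6.20 to 9.52, both lowest on array 3 in each of the 4 groups.

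The NF-kB members comprise subunits (Nfkb2, Rel, Relb), inhibitors (Nfkbia, Nfkbid, Nfkbie) and the deubiquitinase Tnfaip3 (A20). Nfkbia, the classical IkB, had log2 values of 11, 11.23 and 10.21 in CKO Treg, 11.89, 11.62 and 10.92 in Ctrl Treg, 11.17, 11.66 and 10.28 in CKO Teff and 11.12, 11.71 and 10.44 in Ctrl Teff. The CKO array was the lower in 3 of 3 Treg pairs. Nfkbid (IkBNS), a nuclear IkB protein, had 11.18, 11.52 and 10.00 in CKO Treg, 12.01, 11.97 and 11.19 in Ctrl Treg, 13.02, 13.00 and 11.44 in CKO Teff and 12.89, 13.59 and 11.61 in Ctrl Teff. Rel (c-Rel) had 7.39, 7.21 and 6.77 in CKO Treg, 7.26, 7.48 and 7.27 in Ctrl Treg, 8.29, 8.83 and 7.63 in CKO Teff and 8.33, 9.18 and 7.92 in Ctrl Teff. Each Teff array lay above each Treg array of its genotype for Rel, and for Nfkbid the groups overlapped.

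**Figure D1:**
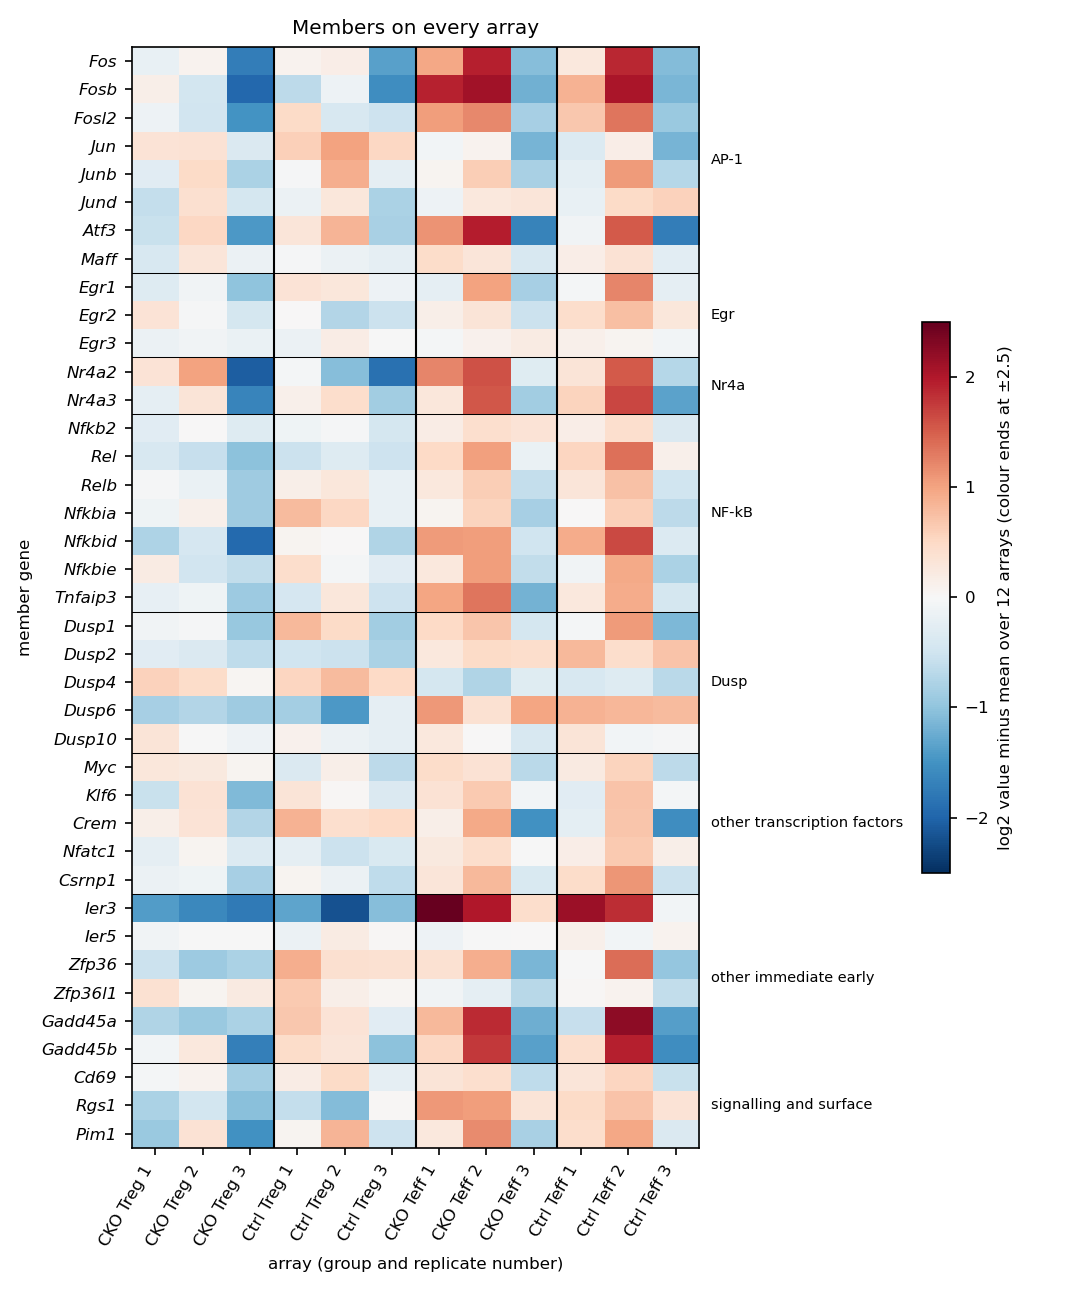
Heat map of the 39 tested members (rows, grouped by role) on the 12 arrays (columns, by group and replicate number), coloured by the log2 value minus that gene's mean over the 12 arrays, with colour ending at ±2.5. The arrays numbered 3 are blue for most members in every group, and Dusp2, Dusp6, Ier3 and Rgs1 divide Treg from Teff.

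The members moved together within groups, by array number. With group means removed, 25 of the 39 members correlated above 0.8 with the mean of the other members over the 12 arrays, among them Gadd45b (r = 0.99), a stress and growth arrest gene, Fos (r = 0.99), Relb (r = 0.98), Csrnp1 (r = 0.98), a nuclear factor induced by stimulation, and Nfkbid (r = 0.98). On each array all members were read from the same hybridised RNA, and these correlations are given as a description with no test. The 6 members under 0.3 were Dusp4 (r = 0.22), Jund (r = 0.12), Dusp2 (r = 0.03), Egr3 (r = 0.01), Dusp6 (r = -0.33) and Ier5 (r = -0.36), of which Egr3 and Ier5 had signals near the array median.

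The mean deviation of the 39 members from their group mean was -0.49 on array 3 of CKO Treg, -0.32 on array 3 of Ctrl Treg, -0.78 on array 3 of CKO Teff and -0.73 on array 3 of Ctrl Teff. On the arrays numbered 2 it was 0.32 in CKO Treg, 0.14 in Ctrl Treg, 0.55 in CKO Teff and 0.70 in Ctrl Teff. The array numbered 3 was the lowest of its group in all 4 groups for 20 of the 39 members, against 5.53% of all genes. It was the lowest in both Treg groups for 25 members, against 14.1%, and in both Teff groups for 30, against 18.3%. The array numbered 2 was the highest in all 4 groups for 9 members, against 2.29% of all genes, in both Treg groups for 11, against 12.4%, and in both Teff groups for 26, against 17%. The labels do not say what a number shares. The share of all genes above their group mean ran from 43.7% on array 2 of Ctrl Teff to 54.2% on array 3 of Ctrl Teff.

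Markers of other cells also differed between the arrays of a group. The mean log2 value of the 16 neutrophil markers was 8.88, 9.30 and 6.88 in CKO Teff and 7.77, 9.81 and 6.09 in Ctrl Teff, high where the members were high. It was 7.82, 5.77 and 7.97 in CKO Treg and 8.83, 6.00 and 8.51 in Ctrl Treg, lowest on the arrays numbered 2, on which Fos was the highest of its group. The mean of 7 mast cell and basophil markers was 9.42, 8.84 and 5.37 in CKO Teff and 5.37, 6.19 and 4.85 in Ctrl Teff. It stayed between 5.03 and 5.55 in Treg. The mean of 5 B cell and dendritic cell markers was 7.26, 7.93 and 7.09 in CKO Treg, 7.10, 7.12 and 6.44 in Ctrl Treg, 7.59, 8.10 and 7.0 in CKO Teff and 5.65, 7.01 and 5.97 in Ctrl Teff. It was highest on array 2 of each group, and lowest on array 3 in all groups but Ctrl Teff. The part of these cells in the members' spread was not tested.

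**Figure D2:**
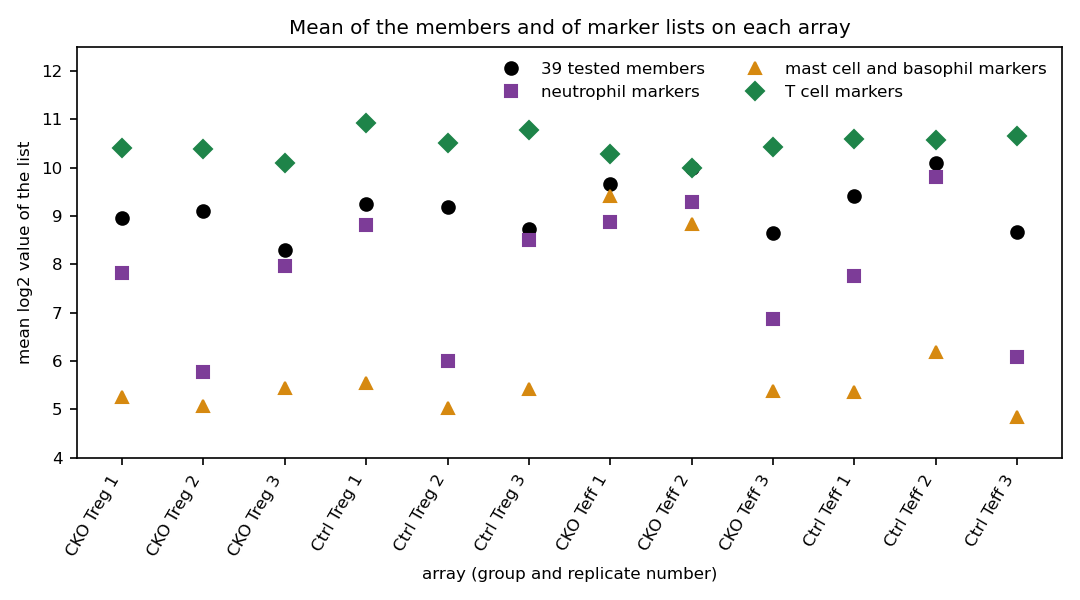
Mean log2 value of the 39 tested members and of 3 marker lists on each of the 12 arrays, by group and replicate number. The members' mean lies between 8.30 and 10.09 and is lowest on array 3 of each group, the neutrophil markers are lowest on array 2 in Treg and on array 3 in Teff, and the mast cell and basophil markers stand out on arrays 1 and 2 of CKO Teff.

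The comparison of Treg with Teff asks how the response of the Foxp3+ cells differs from that of Foxp3- cells out of the same transfer. Among CKO arrays 2 of the 39 members passed an adjusted p under 0.05 (limma, Benjamini-Hochberg over all genes), the Dusp phosphatases Dusp2 and Dusp6, both lower in Treg. Over all genes 0.355% passed, 0.182% lower and 0.173% higher. Among Ctrl arrays 3 members passed, all of them Dusp phosphatases: Dusp2 and Dusp6 fell in Treg and Dusp4 rose. There 1.01% of all genes passed, 0.602% higher and 0.413% lower.

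Dusp2 (PAC-1), a nuclear MAP kinase phosphatase of activated lymphocytes, had log2 values of 11.91, 11.84 and 11.56 in CKO Treg, against 12.46, 12.68 and 12.64 in CKO Teff. In the sufficient cells they were 11.70, 11.67 and 11.42 in Ctrl Treg, against 13.00, 12.64 and 12.91 in Ctrl Teff. Every Treg array lay below every Teff array in both genotypes. The log2 difference was -0.83 ± 0.14 (SE) in CKO (adjusted p = 0.0445) and -1.26 ± 0.14 in Ctrl (adjusted p = 0.00326). The CKO call was lost in 10 of 12 fits that left out 1 array (adjusted p 0.0524 to 0.152), all but those without array 3 of CKO Teff or array 2 of Ctrl Teff. The Ctrl call held in all 12 such fits, with adjusted p from 0.00549 to 0.0207. A second Dusp2 probe differed by -0.65 in CKO (adjusted p = 0.311) and by -1.36 in Ctrl (adjusted p = 0.0171).

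Dusp6, a cytoplasmic phosphatase selective for ERK, had 9.27, 9.37 and 9.21 in CKO Treg, against 11.18, 10.48 and 11.09 in CKO Teff. It had 9.26, 8.67 and 9.88 in Ctrl Treg, against 10.97, 10.92 and 10.88 in Ctrl Teff. All 6 Treg arrays were below all 6 Teff arrays. The log2 difference was -1.63 ± 0.27 (SE) in CKO (adjusted p = 0.0352) and -1.66 ± 0.27 in Ctrl (adjusted p = 0.0170). With the replicate number as a random block the CKO call was lost (adjusted p = 0.0507) and the Ctrl call held (adjusted p = 0.0320). Without 1 array the CKO call was lost in 6 of 12 fits (each CKO Treg array and array 1 of the other 3 groups, adjusted p 0.0569 to 0.133). The Ctrl call was lost in 4 of 12 (arrays 1 and 2 of Ctrl Treg and of Ctrl Teff, adjusted p 0.0513 to 0.0839). A second probe differed by -1.94 in CKO (adjusted p = 0.00836) and -1.55 in Ctrl (adjusted p = 0.0140). A further Dusp6 probe, near the array median, differed by -0.43 in CKO and -0.49 in Ctrl and did not pass.

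Dusp4, a nuclear phosphatase, went the other way, with 10.34, 10.22 and 9.81 in CKO Treg, against 9.32, 9.0 and 9.47 in CKO Teff. It had 10.30, 10.56 and 10.26 in Ctrl Treg, against 9.37, 9.44 and 9.09 in Ctrl Teff. Treg lay above Teff with no overlap in both genotypes. The log2 difference was 0.86 ± 0.18 (SE) in CKO, with adjusted p = 0.0701, and 1.08 ± 0.18 in Ctrl (adjusted p = 0.0190). The Ctrl call was lost in 4 of 12 fits without 1 array (arrays 1 and 2 of Ctrl Treg, 1 and 3 of Ctrl Teff, adjusted p 0.0521 to 0.110) and when its probes were averaged (0.66, adjusted p = 0.294). A second Dusp4 probe differed by 0.77 in CKO and 0.81 in Ctrl, neither past the threshold, and a dimmer one by 0.04 and 0.10. Dusp1, the prototype of the family, spanned 9.38 to 11.56 over all arrays, and Dusp10, which acts on p38 and JNK, 4.46 to 5.19. Neither passed.

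**Figure D3:**
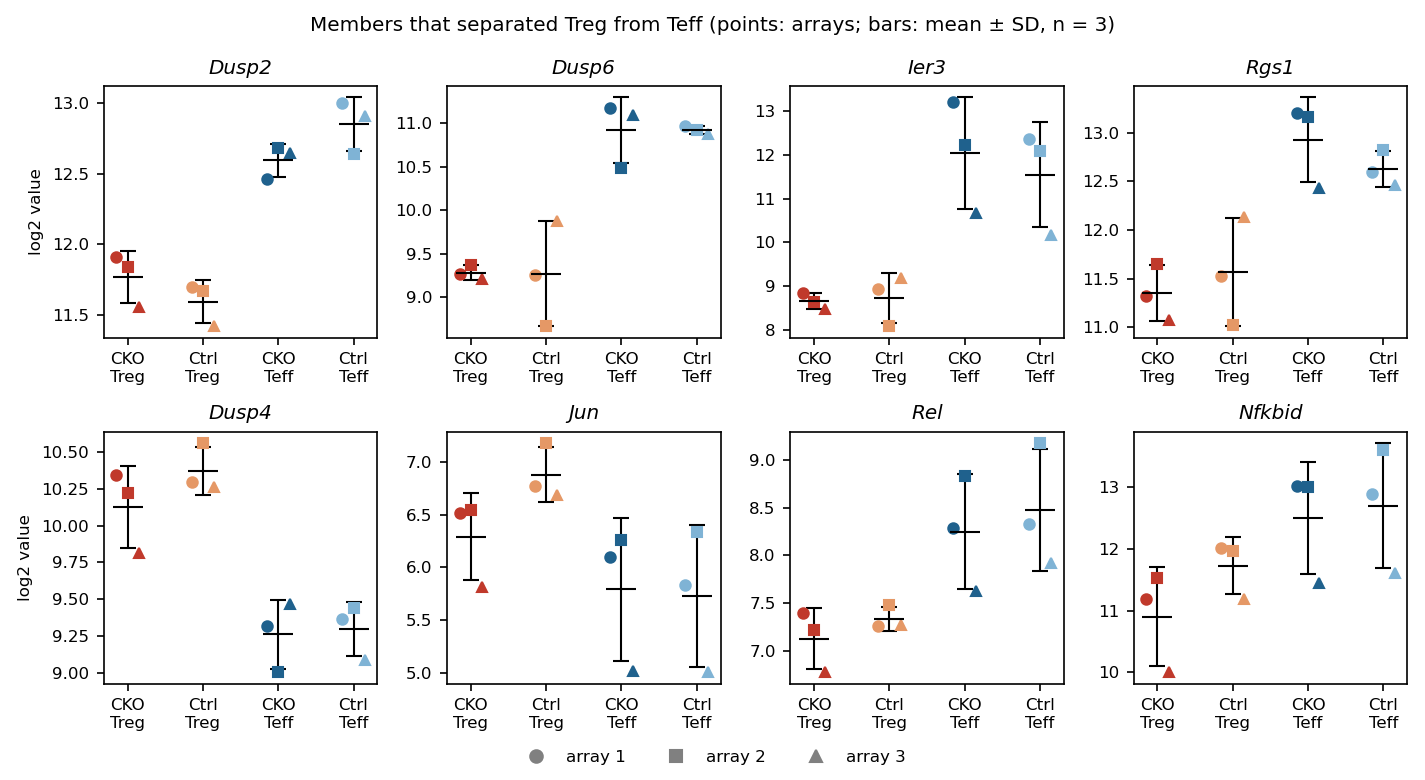
Log2 values of Dusp2, Dusp6, Ier3, Rgs1, Dusp4, Jun, Rel and Nfkbid on each array of the 4 groups (points shaped by array number), with the mean ± SD of 3 arrays. Dusp2, Dusp6, Ier3, Rgs1 and Rel lie lower in Treg than in Teff of the same genotype with no overlap, and Dusp4 higher.

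Other members with no overlap between Treg and Teff did not pass the test. Ier3, an early response gene tied to ERK signalling and cell survival, had 8.85, 8.64 and 8.49 in CKO Treg, against 13.21, 12.24 and 10.68 in CKO Teff, and 8.93, 8.07 and 9.18 in Ctrl Treg, against 12.38, 12.09 and 10.17 in Ctrl Teff. Its log2 difference was the largest of the 39 members in size, -3.39 ± 0.67 (SE, adjusted p = 0.0623) in CKO and -2.82 ± 0.67 (adjusted p = 0.0951) in Ctrl. With a random block Ier3 passed in both (adjusted p = 0.0336 in CKO and 0.0499 in Ctrl). The array numbered 3 was the lowest of each Teff group for Ier3, and these arrays also had the lowest neutrophil markers of their group. Treg arrays 1 and 3 had neutrophil marker means of 7.82 to 8.83 and Ier3 of 8.49 to 9.18. Treg arrays 2 had means of 5.77 in CKO and 6.00 in Ctrl, and Ier3 of 8.64 and 8.07. The part of these cells in the Ier3 signal was not tested. Rgs1, which shortens chemokine receptor signalling, had 11.33, 11.65 and 11.08 in CKO Treg, against 13.20, 13.16 and 12.43 in CKO Teff, and 11.53, 11.03 and 12.14 in Ctrl Treg, against 12.60, 12.82 and 12.46 in Ctrl Teff. Its difference was -1.58 ± 0.29 (adjusted p = 0.0513) in CKO and -1.06 ± 0.29 (adjusted p = 0.156) in Ctrl, while a second Rgs1 probe differed by -1.58 in CKO (adjusted p = 0.0939) and -1.72 in Ctrl (adjusted p = 0.0459).

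An unadjusted p under 0.05 was found for 9 of the 39 members in each genotype, against 10.8% of all genes in CKO and 10.4% in Ctrl. In CKO, 9 members had no overlap, 7 lower in Treg (Dusp2, Dusp6, Ier3, Rgs1, Rel, Nfkb2 and Egr3) and 2 higher (Dusp4 and Zfp36l1), against 13.7% of all genes, 5.58% lower and 8.15% higher. In Ctrl it was also 9, 7 lower (Dusp2, Dusp6, Ier3, Nfatc1, Rgs1, Rel and Egr2) and 2 higher (Dusp4 and Jun), against 14.3% of all genes, 6.47% lower and 7.83% higher. Rel had a log2 difference of -1.12 in CKO (adjusted p = 0.236) and -1.14 in Ctrl (adjusted p = 0.212). Jun had 6.52, 6.54 and 5.81 in CKO Treg, against 6.10, 6.26 and 5.02 in CKO Teff, where the groups overlapped. In Ctrl it had 6.77, 7.17 and 6.69 in Treg, against 5.84, 6.34 and 5.01 in Teff, a difference of 1.15 ± 0.39 (adjusted p = 0.281). Zfp36l1, a paralogue of Zfp36 that also binds AU-rich elements, had 14.11, 13.80 and 13.96 in CKO Treg, against 13.65, 13.50 and 13.05 in CKO Teff. In Ctrl it had 14.39, 13.88 and 13.79 in Treg, against 13.76, 13.83 and 13.12 in Teff, and the groups overlapped.

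Over the list, the median log2 difference between Treg and Teff was -0.60 in CKO, with 32 of 39 members lower in Treg, where all genes had a median of 0.03 and 44.3% lower. In Ctrl it was -0.22 with 27 lower, where all genes had 0.01 and 47.6% lower. Among CKO arrays all 7 NF-kB members were lower, from -1.59 for Nfkbid (adjusted p = 0.348) to -0.22, and 7 of 8 AP-1 members, from -1.70 for Fosb (adjusted p = 0.621). None of these passed the test. Arrays 1 and 2 of CKO Teff had a high mean of the mast cell and basophil markers and high Klra7, Klre1 and Klrd1. The NK markers Ncr1 (4.47 and 4.42) and Klrb1c (4.68 and 4.80) lay near the array median there. Without these arrays the CKO median was 0.32. That fit leaves array 3, the lowest of its group for the members' mean, as the only CKO Teff array against 3 Treg arrays. Between the arrays numbered 3 alone the members' mean was 8.30 in CKO Treg, against 8.65 in CKO Teff. In Ctrl it went the other way, with 8.73 in Treg, against 8.67 in Teff. The 2 Treg and Teff comparisons share no array, but CKO and Ctrl cells were transferred together.

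**Figure D4:**
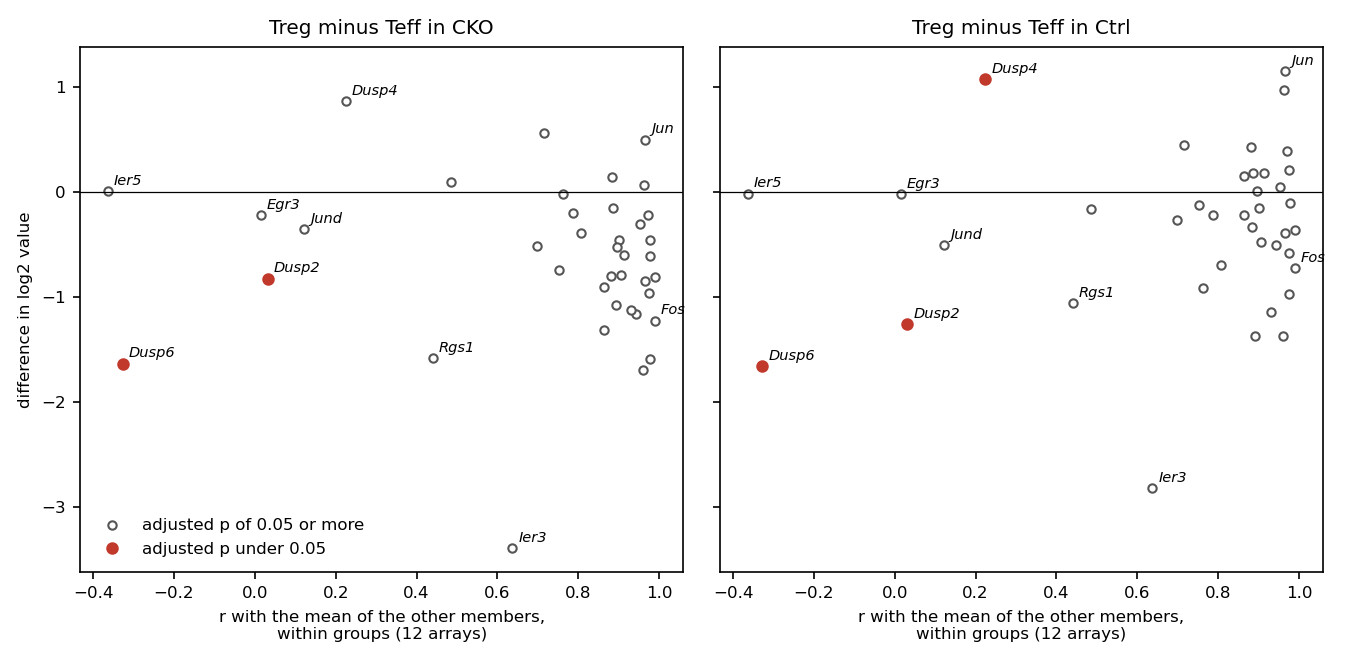
Log2 difference, Treg minus Teff, of each of the 39 members (vertical) against its correlation with the mean of the other members within groups over 12 arrays (horizontal), in CKO (left) and Ctrl (right), with filled points for an adjusted p under 0.05. The filled points, Dusp2 and Dusp6 in both and Dusp4 in Ctrl, lie at correlations of 0.22 or lower, and most members crowd above 0.8. Which points are filled also depends on spread, so their place shows no relation of the axes by itself. The SD within groups was 0.16 for Dusp2, 0.36 for Dusp6 and 0.22 for Dusp4, against 0.93 for Ier3, which did not pass.

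The comparison of arrays labelled CKO with those labelled Ctrl in Treg asks whether loss of Blimp1 changed the response in Foxp3+ cells. None of the 39 members passed in the fit without pairing, where 0.099% of all genes did, and 1 member, Zfp36, had an unadjusted p under 0.05, against 5.33% of all genes. Same-numbered CKO and Ctrl arrays deviated together, so the fit with the replicate number as a block is given beside it. With the block 3 members passed, all lower in CKO: Zfp36, Nfkbia and Pim1. That compares with 2.18% of all genes with the block in either direction and 1.3% lower.

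Zfp36 had log2 values of 9.86, 9.49 and 9.60 in CKO Treg, against 11.32, 10.81 and 10.79 in Ctrl Treg. All CKO arrays lay below all Ctrl arrays, and the pairs differed by -1.46, -1.32 and -1.19. The log2 difference was -1.32 ± 0.59 (SE, adjusted p = 0.920 without and 0.00876 with the block). In Teff Zfp36 had 10.78, 11.30 and 9.26 in CKO, against 10.39, 11.81 and 9.44 in Ctrl, and the groups overlapped. The SE without the block draws on this wide spread in Teff, and a fit of the 6 Treg arrays alone gave an adjusted p of 0.0606. A fit with the block as a random term gave 0.134.

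Nfkbia differed by -0.66 ± 0.43 (SE, adjusted p = 1.00 without and 0.0362 with the block), and its pairs by -0.89, -0.38 and -0.71. A second Nfkbia probe differed by -0.55 in Treg and by -0.59 in Teff. Pim1, a serine/threonine kinase that supports survival of stimulated lymphocytes, had 6.98, 8.28 and 6.41 in CKO Treg, against 7.98, 8.76 and 7.40 in Ctrl Treg, where the groups overlapped. In Teff it had 8.19, 9.10 and 7.10 in CKO, against 8.35, 8.88 and 7.56 in Ctrl. The Treg difference was -0.83 ± 0.61 (adjusted p = 1.00 without and 0.0397 with the block). With the random block the adjusted p was 0.346 for Nfkbia and 0.425 for Pim1. Leaving out any Treg pair ended all 3 calls of the fit with the block, with adjusted p of 0.0521 to 0.0744 for Zfp36, 0.0682 to 0.208 for Nfkbia and 0.0698 to 0.231 for Pim1.

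Of the 39 members 29 were lower in CKO Treg in sign, against 49.7% of all genes, with a median log2 difference of -0.24 against 0.00 for all genes. The CKO array was the lower in 3 of 3 pairs for 19 members, against 18.2% of all genes, and the higher in 3 of 3 for 5, against 17.5%. Those 5 were Myc, Egr2, Nfatc1, Dusp2 and Dusp10. The 19 include Egr3, near the array median, whose pair 1 differed by -0.01. Because most members moved together from array to array, counts of members, here and in the other comparisons, are not counts of independent genes. All 7 NF-kB members were lower in sign, from -0.82 for Nfkbid (adjusted p = 0.0537 with the block) to -0.01 for Nfkb2. Jun, Gadd45a and Crem joined Zfp36 as the 4 members with no overlap, all lower in CKO, against 12.3% of all genes, 6.36% lower and 5.96% higher. Jun differed by -0.59 (adjusted p = 0.0802 with the block), Gadd45a, a stress-induced growth arrest gene, by -1.07 (0.131) and Crem, a regulator of cyclic AMP-responsive genes, by -0.68 (0.140).

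Myc, a driver of growth in stimulated T cells, had 7.22, 7.17 and 6.99 in CKO Treg, against 6.58, 7.08 and 6.28 in Ctrl Treg, a log2 difference of 0.48 ± 0.36 (SE, adjusted p = 1.00 without and 0.171 with the block). The groups overlapped. Egr2 differed by 0.38 ± 0.28 (1.00 and 0.299) and Dusp2 by 0.17 ± 0.14 (1.00 and 0.661). Cd69, a surface protein that appears within hours of stimulation, had 12.41, 12.55 and 11.61 in CKO Treg, against 12.65, 12.94 and 12.23 in Ctrl Treg, and differed by -0.42 ± 0.38 (1.00 and 0.124). The summed neutrophil markers, as log2, were 13.96, 11.08 and 14.65 in CKO Treg, against 15, 11.61 and 15.19 in Ctrl Treg. The summed T cell markers were 13.83, 13.67 and 13.35 in CKO Treg, against 14.40, 13.84 and 13.97 in Ctrl Treg. Both lists were lower on the CKO array in 3 of 3 pairs. The mean log2 value of 3 markers of the Treg sort was also lower in 3 of 3, with 8.53, 8.56 and 8.42 in CKO Treg, against 9.31, 9.31 and 8.87 in Ctrl Treg. Of these Il2ra and Ikzf2 were each lower in 3 of 3 pairs, and Foxp3 was not. Foxp3 had 8.80, 7.50 and 7.85 in CKO Treg, against 8.94, 7.83 and 7.29 in Ctrl Treg. The mean of the B cell and dendritic cell markers, given above by array, was higher on the CKO array in 3 of 3 pairs. Of these markers H2-Aa, H2-Ab1 and Cd74 were each higher in 3 of 3 pairs, while the dim Cd79b and Itgax were not. The part of these lists in the members' differences was not tested.

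**Figure D5:**
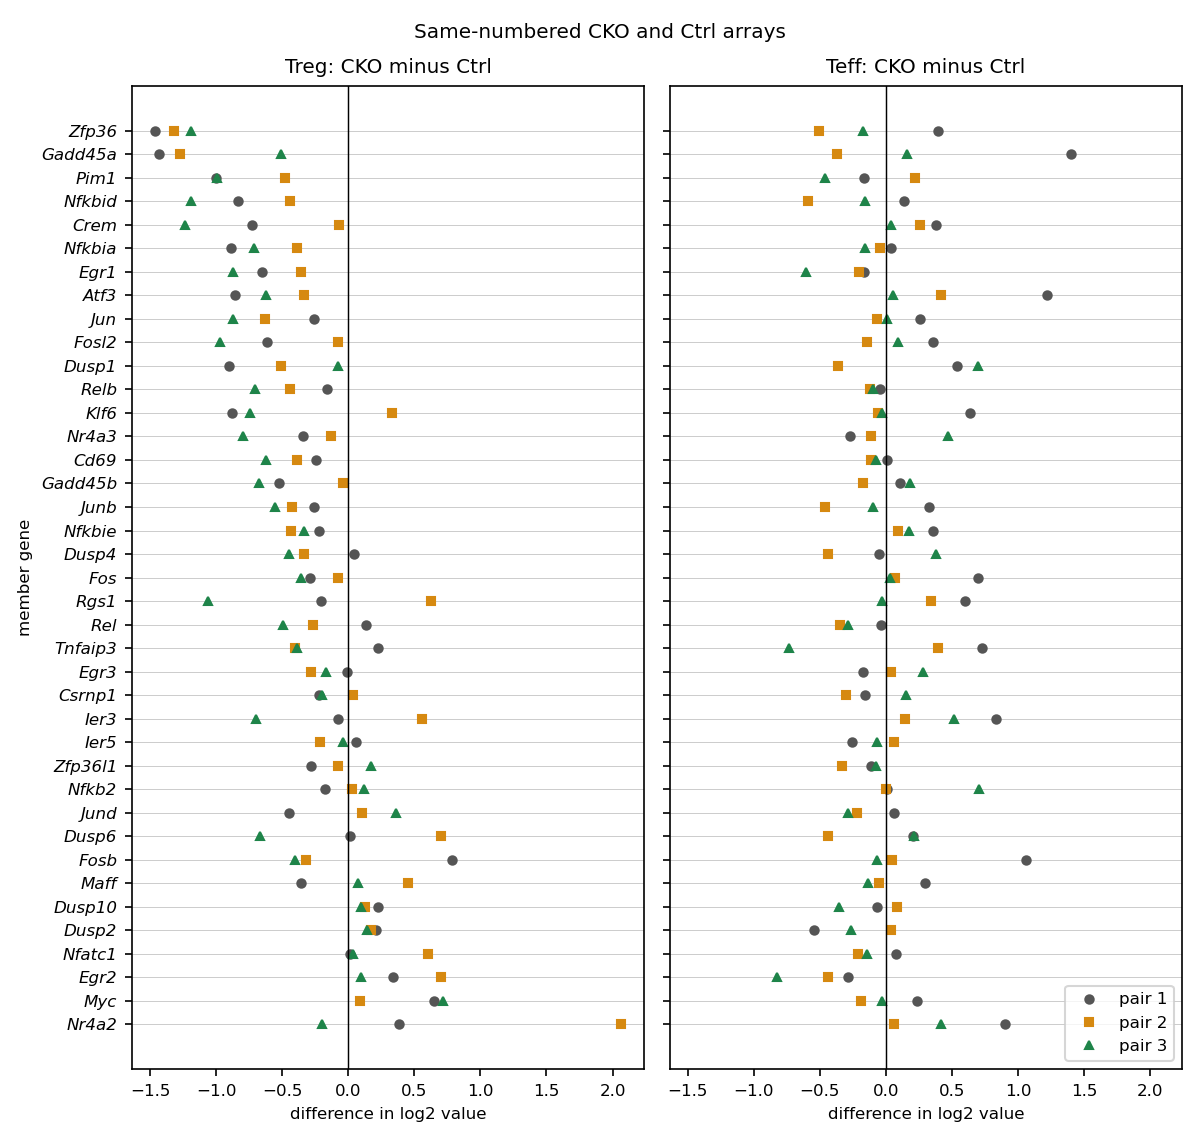
Difference in log2 value, CKO minus Ctrl, of each of the 39 members in 3 same-numbered pairs (points by shape and colour) in Treg (left) and Teff (right), with genes ordered by their mean Treg difference. In Treg 19 members have all 3 points below 0, led by Zfp36, and in Teff the points of most members fall on both sides of 0.

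In Teff none of the 39 members passed without or with the block, where 0.0165% and 0.099% of all genes did, and none had an unadjusted p under 0.05, against 4.17% of all genes. The median log2 difference was 0.01, with 20 members higher and 19 lower in CKO, against 44.2% of all genes higher, and no member lacked overlap between the groups, against 6.77% of all genes. In 3 of 3 Teff pairs the CKO array was above the Ctrl array for 7 members (Nfkbie, Crem, Nfkb2, Fos, Nr4a2, Ier3 and Atf3), against 12.8% of all genes, and below it for 5 (Egr2, Egr1, Rel, Zfp36l1 and Relb), against 17.7%. Egr2 had the smallest p, with a difference of -0.52 ± 0.28 (SE, adjusted p = 1.00 without and 0.255 with the block, 95% interval -1.14 to 0.10), and was lower in CKO in 3 of 3 pairs. Dusp2 differed by -0.26 ± 0.14, Ier3 by 0.50 ± 0.67, Rgs1 by 0.30 ± 0.29, Nfkb2, the precursor of the p52 subunit, by 0.24 ± 0.20 and Ier5 by -0.09 ± 0.11. Nfkb2 had 8.34, 8.58 and 8.5 in CKO Teff, against 8.33, 8.58 and 7.79 in Ctrl Teff, and 7.87, 8.16 and 7.84 in CKO Treg, against 8.04, 8.13 and 7.73 in Ctrl Treg. Its Teff difference lies in array 3 of Ctrl Teff. Ier5 stayed between 4.53 and 4.87 on all 12 arrays, near the array medians. The 95% interval for Ier3 without the block ran from -0.98 to 1.97. Its pairs differed by 0.83, 0.15 and 0.51, and with the block the SE was 0.22 (adjusted p = 0.490).

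Whether the CKO and Ctrl arrays differed by another amount in Treg than in Teff was tested as an interaction. None of the 39 members passed without or with the block, where 0.0165% and 0.0413% of all genes did, and 1, Egr2, had an unadjusted p under 0.05, against 3.48%. Egr2 had the smallest p: it was higher in CKO Treg and lower in CKO Teff in 3 of 3 pairs each, an interaction of 0.90 ± 0.39 (SE, adjusted p = 1.00 without and 0.182 with the block). Zfp36 had -1.23 ± 0.83 (1.00 and 0.133), so its lower signal in CKO Treg is not shown to differ from Teff. Dusp2 had 0.43 ± 0.20 (1.00 and 0.420), Rgs1 -0.52 ± 0.41 and Nfatc1, the calcineurin-regulated factor that amplifies its own expression, 0.31 ± 0.26. Nfatc1 had 8.18, 8.48 and 8.07 in CKO Treg, against 8.17, 7.87 and 8.03 in Ctrl Treg, and 8.64, 8.85 and 8.40 in CKO Teff, against 8.57, 9.06 and 8.55 in Ctrl Teff. The genotypes overlapped in both cell types. The pairs went opposite ways in Treg and Teff for 5 members. Egr2 alone was higher in CKO in 3 of 3 Treg pairs and lower in 3 of 3 Teff pairs (2.56% of members, against 2.86% of all genes). Atf3, Crem, Fos and Nfkbie were lower in Treg and higher in Teff (10.3%, against 1.94%). The median interaction over the members was -0.34 against 0.02 for all genes. Without arrays 1 and 2 of CKO Teff, which leaves only array 3 of that group, the members' median was 0.44.

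Of 96 further genes of the same pathways 83 were tested, and none passed in any of the 5 comparisons without the block. Their number with an unadjusted p under 0.05 was 9 for CKO against Ctrl in Treg, against 5.33% of all genes, 7 in Teff, against 4.17%, and 3 for the interaction, against 3.48%. It was 20 for Treg against Teff in CKO, against 10.8%, and 17 in Ctrl, against 10.4%. With the block 6 passed for CKO against Ctrl in Treg, 1 higher and 5 lower, against 0.883% of all genes higher and 1.3% lower. Batf3, a bZIP factor that pairs with Jun proteins, rose: it had 7.73, 7.89 and 8.54 in CKO Treg, against 4.67, 6.31 and 4.87 in Ctrl Treg, a log2 difference of 2.77 ± 0.45 (SE, adjusted p = 0.0660 without and 0.00779 with the block). In Teff it had 6.26, 6.40 and 6.72 in CKO, against 5.01, 5.09 and 6.24 in Ctrl. The CKO arrays lay above the Ctrl arrays in both cell types, narrowly in Teff. Ppp3ca, a catalytic subunit of calcineurin, fell, with 5.60, 6.45 and 5.80 in CKO Treg, against 6.98, 7.41 and 7.22 in Ctrl Treg. The difference was -1.25 ± 0.33 (0.345 and 0.00909). The brighter Ppp3cb, another catalytic subunit, had 9.93, 9.87 and 10.03 in CKO Treg, against 9.74, 9.58 and 10.09 in Ctrl Treg.

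Malt1, the protease of the CARMA1 complex upstream of NF-kB, fell by 0.85 on the log2 scale in CKO Treg (adjusted p = 0.0194 with the block). Bcl3, a nuclear IkB protein, fell by 1.04 (0.0437), Rasgrp1, which activates Ras downstream of diacylglycerol, by 0.73 (0.0180) and Klf2, a quiescence factor, by 0.92 (0.0129). With a random block Batf3 and Ppp3ca still passed (adjusted p = 0.00573 and 0.0242), and Malt1, Bcl3, Rasgrp1 and Klf2 did not (0.0533 to 0.386). In Teff the smallest p values were those of Dusp3 (0.97, adjusted p = 0.293 with the block) and Malt1 (-0.87, 0.0641). Between Ctrl Treg and Ctrl Teff they were those of Ppp3r1, the regulatory subunit of calcineurin (1.06, adjusted p = 0.0528), and Bhlhe40, a stimulus-induced repressor (-1.0, adjusted p = 0.104). In CKO they were those of Zc3h12d, a relative of the RNase Regnase-1 (1.93, 0.0513), and Ppp3ca (-1.37, 0.118), and for the interaction those of Ppp3ca (-1.35) and Batf3 (1.76).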

How the data were processed

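Per the submitters' processing notes, the authors used GenomeStudio and limma 3.30.11. The range of the deposited values shows a log2 scale; how background was corrected and arrays were normalized is not stated in them, and raw intensities were not analysed here. Of 31641 probes, 28197 had 1 gene symbol in the platform annotation, 5 several and 3439 none. Probes above their array's median on at least 3 arrays were kept (17579), and the kept probe with the highest mean stood for each of 12119 genes. Limma 3.58.1 in R 4.3.3 fitted 1 mean per group to all 12 arrays (lmFit, eBayes), with Benjamini-Hochberg adjustment over all genes and no covariate. The code was tested on simulated data.

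Members and lists were chosen with earlier results of these data known. All members are accounted for. Values on every array are given for members that passed in any comparison, without or with the block, and for the 3 with the smallest unadjusted p in each direction of each comparison; up to 4 examples stand for each role. Of the other pathway genes those that passed are named, or the 2 with the smallest p. Other names, such as Fos and Cd69, were chosen after their values were seen.

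Same-numbered CKO and Ctrl arrays deviated together (correlations of 0.52 to 0.59 in Treg and 0.35 to 0.74 in Teff, over genes), so the numbers pair genotypes and a fit with the number as a block is given where it changed a call. Between Treg and Teff the same-number correlations ran from -0.27 to 0.32, so the numbers pair cell types at most in part. The array numbered 3 was the lowest of all 4 groups for 5.53% of all genes. With 3 arrays a group an exact permutation test of 1 gene cannot go below 0.10. The number of arrays limits the precision. Promoter windows came from RefSeq (GRCm38.p6).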

Additional observations from a re-analysis of the deposited data

Results flagged for a closer look

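For 5 members the CKO array was on one side of its same-numbered Ctrl array in 3 of 3 Treg pairs and on the opposite side in 3 of 3 Teff pairs. The CKO minus Ctrl log2 difference in Treg less that in Teff was 0.90 for Egr2, higher in CKO Treg and lower in CKO Teff. It was -1.17 for Atf3, -0.90 for Crem, -0.54 for Nfkbie and -0.50 for Fos, all lower in CKO Treg and higher in CKO Teff. The interaction of limma passed for none of them, with adjusted p = 1.00 for each without the block and between 0.182 (Egr2) and 0.417 (Fos) with it. Among the 39 members 10.3% went the way of the 4, against 1.94% of all genes. For Egr2 the share was 2.56%, against 2.86%. Some signs rest on small differences. In Teff pairs 1, 2 and 3 differed by 1.22, 0.41 and 0.06 for Atf3 and by 0.69, 0.07 and 0.03 for Fos. Crem had 0.38, 0.26 and 0.04, and Nfkbie 0.36, 0.09 and 0.17. Treg pair 2 differed by -0.08 for Fos and -0.07 for Crem. The mean of the mast cell and basophil markers was 9.42 on array 1 of CKO Teff, against 5.37 on that of Ctrl Teff. Its part was not tested.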

How the results depend on the processing

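Alternatives covered normalization, the filter on dim probes, the choice of probe, the fit, blocks and left-out arrays; those that leave out arrays by their markers, pair numbers over all groups or combine a block with left-out pairs were chosen after seeing the data. With the replicate block 3 members passed for CKO against Ctrl in Treg, against 0 without it, and 4, 3 and 3 without Teff pair 1, 2 or 3. Zfp36 passed in each of these, but Pim1 was lost without pair 1 (adjusted p = 0.0539) and Nfkbia without pair 2 (adjusted p = 0.0558). In the other comparisons of genotype the fixed block changed no call among the members. As a random block it gave none of the 3 Treg calls, ended that of Dusp6 for Treg against Teff in CKO (adjusted p = 0.0507) and added Ier3 in CKO (adjusted p = 0.0336) and in Ctrl (adjusted p = 0.0499). The fixed block was not run for Treg against Teff, because it is nested in cell type. With a block for a number shared by all groups, 8 members passed between Treg and Teff in CKO and 7 in Ctrl. A fit of only the compared arrays gave 0 in CKO and 1 in Ctrl. Without all arrays numbered 1, or all numbered 2, both counts were 0, and without those numbered 3 the CKO count was 4 (Dusp4, Ier3, Nfkbid and Rgs1), with Dusp6 (adjusted p = 0.0653) and Dusp2 (adjusted p = 0.144) lost. In CKO the count was 1 with the mean of a gene's probes, 5 with array weights, 0 without arrays 1 and 2 of CKO Teff and 1 without the Teff arrays numbered 2. Without Treg arrays 1 and 3 it was 0 in both genotypes. Leaving out 1 array gave 0 to 5 in CKO and 1 to 4 in Ctrl, and 0 for the other comparisons. In Teff the genotype difference of Ier3 changed sign to -0.86 without arrays 1 and 2 of CKO Teff, and ranged from -0.19 to 1.18 without 1 array; that of Rgs1 changed to -0.20. The fit without arrays 1 and 2 sets array 3 of CKO Teff, the lowest of its group for the members' mean, alone against 3 Ctrl arrays. In it the members' median genotype difference in Teff moved from 0.01 to -0.73, and their median interaction from -0.34 to 0.44. The same-numbered pair 3 differed by 0.51 for Ier3 and -0.03 for Rgs1. The Rgs1 interaction became 0.32 without Treg arrays 1 and 3. Fits without arrays have fewer samples; otherwise the cause was not tested. Probes near the array median (Egr3, Ier5, Dusp10) limit what could be seen.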
